A study of Mus musculus with 16 samples.

Results

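Genes that mark the early and middle stages of the oligodendrocyte lineage were followed in the mouse corpus callosum during cuprizone (CPZ) feeding and after its withdrawal. The 9 genes were Pdgfra, Cspg4, Gpr17, Lhfpl3, Ptprz1, Vcan, Bmp4, Enpp6 and Bcas1. They were chosen by name, and all of them, with 18 probes together, were found among the 18749 genes and 41174 probes of the array through the accession that the scanner files give each probe. CPZ is a copper chelator that kills mature oligodendrocytes when mixed into the chow. All animals were male wild-type C57BL/6 mice, included at 7 to 8 weeks of age by the study's methods. The methods state that the untreated animals were matched in age to the 4 weeks CPZ group. Age at sampling may therefore differ between untreated and the other groups, and its part in the values was not tested. The untreated group (3 arrays) ate normal diet. The 2 weeks CPZ group (3 arrays) and the 4 weeks CPZ group (4 arrays) were fed CPZ, for which the labels give 0.2 to 0.4% of the chow and the methods give the lower value. The regular diet group (6 arrays) was fed CPZ for 4 weeks and then returned to regular diet. By the methods this group mixes 2 durations of regular diet, 2 days and 2 weeks, and the labels give no way to tell them apart. The 6 arrays were therefore kept as 1 group with all 6 values given, and its spread includes any difference between the durations. RNA came from dissected corpus callosum, so fewer cells of a type and less RNA per cell cannot be told apart.

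Oligodendrocyte precursor cells divide and spread through the adult white matter. They carry the PDGF receptor alpha (Pdgfra), the NG2 proteoglycan (Cspg4), the surface protein gene Lhfpl3, the receptor phosphatase Ptprz1 and the matrix proteoglycan versican (Vcan). On the way to myelination they pass through a committed, premyelinating stage that is marked by the receptor Gpr17 and then by the choline phosphodiesterase Enpp6 and by Bcas1, and Bcas1 is also present in myelinating cells. Bmp4 is a secreted ligand of the bone morphogenetic protein pathway, which holds back oligodendrocyte differentiation, and it is made by committed precursors. After demyelination, surviving precursors divide, differentiate and form new myelin.

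Values are the authors' log2 values, scaled to the 75th percentile of each array and centred, probe by probe, on the untreated median, which is thus 0, so that a difference of 1 is a 2-fold change. The arrays lay on 4 slides, and the share of probes well above background ran from 57.3 to 72.2% per array. The lower shares were those of untreated replicate 1 (57.3%), 4 weeks CPZ replicate 3 (59.2%) and 4 weeks CPZ replicate 2 (60.3%). The scanner files of 14 of the 16 samples hold the values of another sample's column of the processed table. For 13 of them that other sample belongs to another group. The columns were used. Of 27 member differences larger than their SE, 21 change sign with the scanner files as recorded, among them all 7 for regular diet against 4 weeks, so every direction below rests on the columns. The labels were checked against 9 mature myelin genes. Their median lay between -0.68 and 0.37 on the untreated arrays and from -5.48 to -2.08 after 2 weeks of CPZ. After 4 weeks the range was -4.66 to -2.0. On regular diet it lay at -4.19, -4.01 and -2.99 for replicates 1 to 3 and at -0.17, -0.15 and 0.51 for replicates 4 to 6. With the scanner files as recorded, the arrays of untreated replicates 2 and 3 would carry the columns with myelin medians of -3.62 and -2.08, and those of 2 weeks CPZ replicates 1 and 2 the columns with -0.17 and 0.51. Markers of choroid plexus, a tissue next to the corpus callosum, differed between arrays of the same group, with a median of 3.36 on 4 weeks CPZ replicate 3, 2.95 on regular diet replicate 4 and -2.39 on regular diet replicate 1.

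None of the 9 genes passed the call rule in any of the 5 comparisons, which asked for a Benjamini-Hochberg adjusted p under 0.05 in limma over all tested probes and at least a 2-fold change. The late, premyelinating markers Enpp6 and Bcas1 had the largest differences at 2 and 4 weeks of CPZ, up to 3.90-fold lower than untreated. At 4 weeks the rank of Bcas1 (-0.90, against -0.85 for Gpr17) depended on the fit. With the slide as a fixed block Bcas1 was at -0.26, Gpr17 at -0.45 and Ptprz1 at 0.77. The precursor markers Pdgfra, Cspg4 and Lhfpl3 differed from untreated by -0.53 to -0.16 on the log2 scale at 2 and 4 weeks. Vcan differed by -0.10 and -0.63, and the probes of Ptprz1 gave opposite signs at 4 weeks. Gpr17 and Bmp4 had their lowest means at 4 weeks. On regular diet, Cspg4 was far above every other array on 2 of the 6 arrays.

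**Figure D1:**
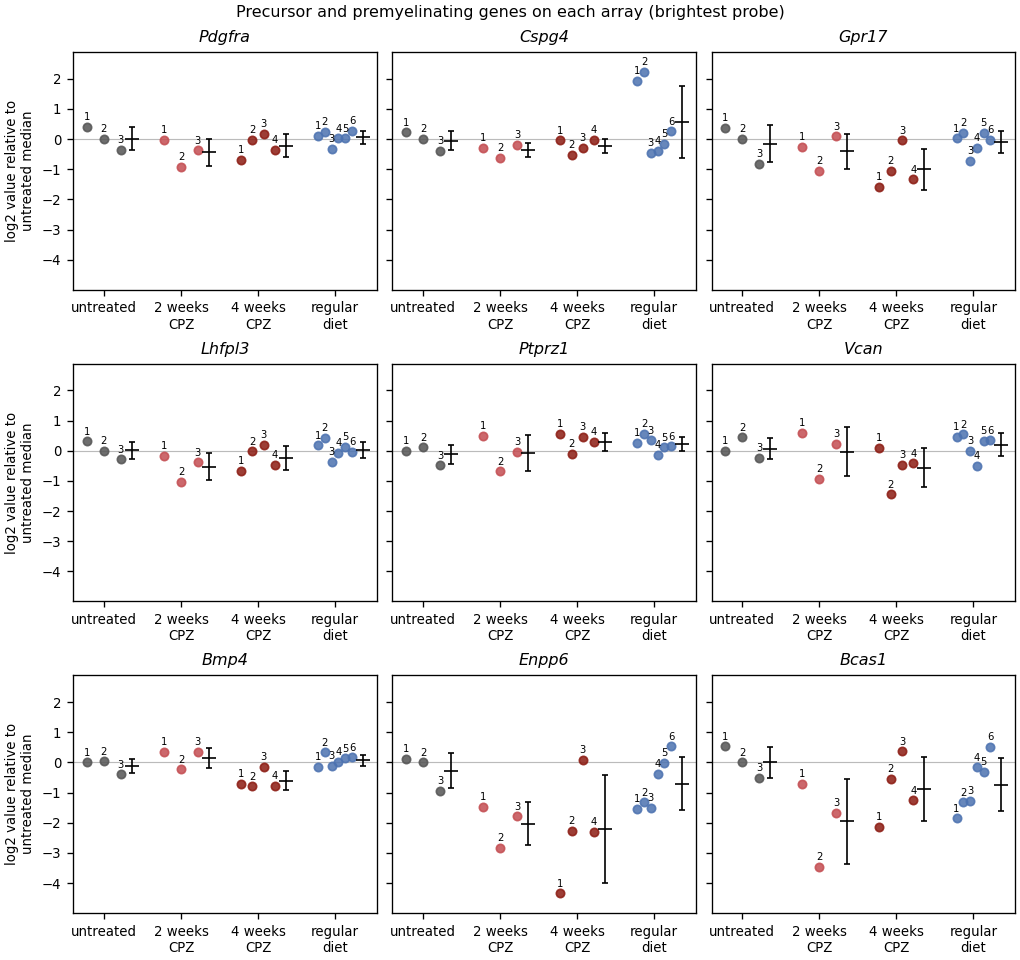
Log2 value of the brightest tested probe of each gene on each of the 16 arrays, relative to the median of the untreated arrays (vertical axis, the same in all panels), by group. Small digits are replicate numbers, and the black mark with bars beside each group is its mean and SD. Enpp6 and Bcas1 are low on most CPZ arrays, 4 weeks CPZ replicate 3 stays near the untreated arrays for both, and Cspg4 is high on regular diet replicates 1 and 2.

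Across all tested genes and unnamed transcripts, 0.233% were called at 2 weeks against untreated, 0.209% at 4 weeks against untreated, 0.0146% at 4 weeks against 2 weeks, 0.946% on regular diet against untreated and 0.00485% on regular diet against 4 weeks. With so few calls anywhere, a count of 0 among 9 genes is close to that background. Before adjustment for multiple testing, 1, 0, 1, 0 and 4 of the 9 genes had a p under 0.05 in these comparisons by their brightest probe. The same threshold was passed by 9.6%, 10.1%, 11.2%, 10.5% and 26.6% of all genes. The 4 genes of the last comparison, in which regular diet was set against 4 weeks of CPZ, were Bmp4, Gpr17, Vcan and Enpp6, and all of them were higher on regular diet.

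Enpp6 encodes a choline-specific phosphodiesterase and is a marker of oligodendrocytes that have just begun to differentiate. Its values were 0.11, 0.00 and -0.94 on the untreated arrays, -1.48, -2.83 and -1.79 at 2 weeks, and -4.34, -2.27, 0.08 and -2.30 at 4 weeks for replicates 1 to 4. Every 2-week array lay below every untreated array, as did 3 of the 4 arrays at 4 weeks. The exception, replicate 3, was at the untreated level. On regular diet the 6 values were -1.54, -1.32, -1.51, -0.38, -0.01 and 0.53, so that replicates 1 to 3 lay below the untreated arrays and replicates 4 to 6 lay within or above them. The probe was well above background on 15 of the 16 arrays. The one below was 4 weeks CPZ replicate 1, so the value of -4.34 there lies in the background range.

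The log2 difference of Enpp6 from untreated was -1.76 ± 0.92 (SE) at 2 weeks, with a 95% interval from -3.84 to 0.33 and a limma adjusted p of 0.678. At 4 weeks it was -1.93 ± 0.86, with an interval from -3.88 to 0.02 and an adjusted p of 0.499. These are 3.38-fold and 3.81-fold lower levels, and both intervals include 0. The 4-week difference was -1.22 without replicate 1, whose value lies in the background range, and -2.69 without replicate 3. The second Enpp6 probe, which was well above background on all 16 arrays, gave -1.84 ± 0.54 at 2 weeks and -1.64 ± 0.50 at 4 weeks. Its unadjusted p-values were 0.00743 and 0.00969, and its limma adjusted p-values were 0.216 and 0.246. Between 4 and 2 weeks Enpp6 differed by -0.17 ± 0.86, with an interval from -2.12 to 1.77. This difference was -0.935 without 4 weeks CPZ replicate 3 and 0.539 without replicate 1, the array in the background range, so no direction is given.

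Within slides the Enpp6 difference was uneven. Slide 1 held 1 untreated and 2 arrays of 2 weeks, and the latter were at -1.75 relative to the former. Slides 2 and 3 each held 1 untreated array and 1 array of 4 weeks, and the differences were 0.08 and -3.40. The 4-week array on slide 3 was replicate 1, whose value lies in the background range, so -3.40 is not exact. With the slide as a fixed block the 4-week difference was -1.54 (limma adjusted p = 0.365). Normexp background correction of the median spot signal gave differences of -0.88 at 2 weeks and -0.75 at 4 weeks.

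Bcas1, a marker of early myelinating oligodendrocytes, had values of 0.53, 0.00 and -0.51 on the untreated arrays and -0.72, -3.47 and -1.68 at 2 weeks. At 4 weeks the values were -2.13, -0.55, 0.37 and -1.26 for replicates 1 to 4, and again replicate 3 was the highest. All 2-week arrays lay below all untreated arrays, although replicate 1 at -0.72 was close to the lowest of them. The log2 difference was -1.96 ± 0.77 (SE) at 2 weeks, a 3.90-fold lower level, with an interval from -3.69 to -0.24. The unadjusted p was 0.0301 and the limma adjusted p was 0.424. At 4 weeks the difference was -0.90 ± 0.72 (adjusted p = 0.784), and 4 weeks against 2 weeks gave 1.06 ± 0.72 (adjusted p = 0.544). Without 2 weeks CPZ replicate 2, the lowest array, the 2-week difference was -1.21. With the slide as a fixed block the differences were -2.28 at 2 weeks and -0.26 at 4 weeks. The difference between 4 and 2 weeks was 2.02 with that block and 0.31 without 2 weeks CPZ replicate 2.

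On regular diet, Bcas1 stood at -1.85, -1.32, -1.27, -0.16, -0.31 and 0.51. Replicates 1 to 3 lay below every untreated array and replicates 4 to 6 lay among them, the same 3 and 3 arrays as for Enpp6 and for the mature myelin genes. The difference from untreated was -0.74 ± 0.65 for Bcas1 and -0.43 ± 0.74 for Enpp6, with limma adjusted p-values of 0.639 and 0.798. The second Bcas1 probe followed the first with a Pearson correlation of 0.99 over the 16 samples. Across the 16 samples the correlation with the median of 9 mature myelin genes was 0.91 for Bcas1, 0.81 for Enpp6, 0.62 for Pdgfra, 0.50 for Lhfpl3 and 0.45 for Gpr17. It was 0.24 for Bmp4, 0.12 for Vcan, -0.13 for Ptprz1 and -0.24 for Cspg4. These correlations are descriptions over arrays that share groups and slides.

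**Figure D2:**
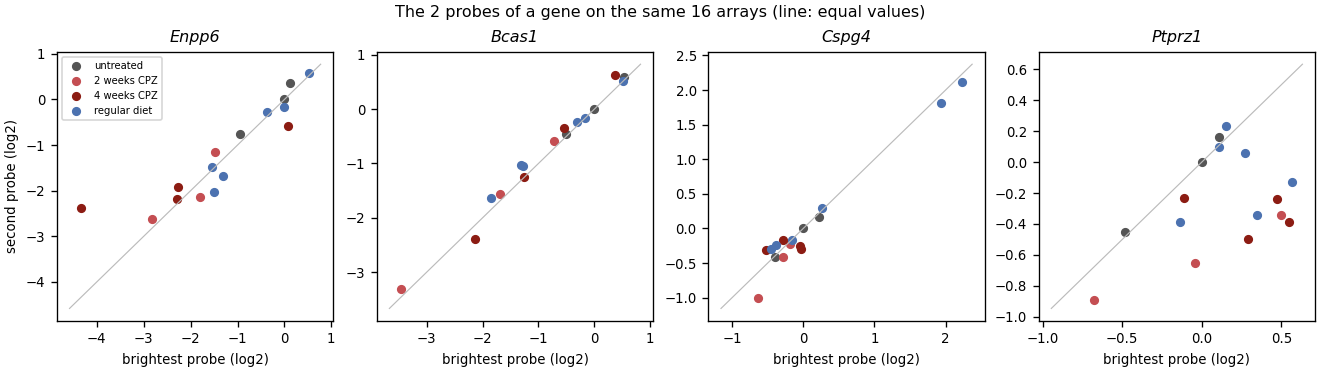
Second probe against brightest probe for 4 genes, as log2 values relative to the untreated median, with 1 point per array coloured by group and a line of equal values. The probes of Bcas1 and Cspg4 lie along the line, Enpp6 departs from it at 4 weeks CPZ replicate 1, and for Ptprz1 the second probe lies below the line on most CPZ and regular diet arrays.

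At 2 weeks against untreated the groups did not overlap for 2 of the 9 genes, Enpp6 and Bcas1, and for 16.8% of all genes. In the comparisons of 4 weeks with untreated, 4 weeks with 2 weeks, regular diet with untreated and regular diet with 4 weeks, no member had groups without overlap, and 9.78%, 15.1%, 8.49% and 8.46% of all genes did.

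Pdgfra, the receptor through which PDGF drives division and survival of precursors, was not called in any comparison. Its values were 0.40, 0.00 and -0.36 on the untreated arrays, -0.03, -0.91 and -0.37 at 2 weeks, -0.68, -0.02, 0.18 and -0.35 at 4 weeks, and between -0.32 and 0.27 with a median of 0.07 on regular diet. All groups overlapped. The log2 difference from untreated was -0.45 ± 0.32 at 2 weeks, with a 95% interval from -1.17 to 0.27. It was -0.23 ± 0.30 at 4 weeks, with an interval from -0.90 to 0.44, and 0.05 ± 0.24 on regular diet, with an interval from -0.46 to 0.56. The intervals leave room for levels from 0.445 to 1.20 times untreated at 2 weeks and from 0.728 to 1.47 times on regular diet. The second Pdgfra probe, which was dimmer, gave -0.31 ± 0.37, -0.34 ± 0.35 and 0.24 ± 0.31. With the slide as a fixed block the brighter probe differed by -0.67 ± 0.25 at 2 weeks (unadjusted p = 0.0331, limma adjusted p = 0.302) and by -0.02 at 4 weeks, and within slide 1 the 2-week arrays were at -0.60 relative to the untreated array. Without 2 weeks CPZ replicate 2, the lowest array, the 2-week difference was -0.21.

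Lhfpl3, which encodes a tetraspan membrane protein enriched in precursors, ran alongside Pdgfra. Its values were 0.31, 0.00 and -0.28 on the untreated arrays, -0.17, -1.02 and -0.38 at 2 weeks and -0.67, -0.02, 0.19 and -0.46 at 4 weeks. On regular diet they lay between -0.37 and 0.42. The log2 difference from untreated was -0.53 ± 0.31 at 2 weeks (limma adjusted p = 0.747), -0.25 ± 0.29 at 4 weeks (adjusted p = 0.860) and 0.03 ± 0.24 on regular diet (adjusted p = 0.962). With the slide as a fixed block the differences were -0.70 ± 0.26 at 2 weeks (unadjusted p = 0.034, limma adjusted p = 0.306) and -0.03 at 4 weeks. Without 2 weeks CPZ replicate 2 the 2-week difference was -0.29. Among 13981 named genes, Lhfpl3 was the gene most like Pdgfra over the 16 samples, with a Pearson correlation of 0.954.

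Since these 2 genes moved together, their promoters are shown as RefSeq gives them on GRCm38.p6, a window of 300 bases at the annotated start of each gene. Promoters of 7 of the 9 genes were in that table. Capitals mark matches, on either strand, to the E-box CAGCTG or to the GC box GGGCGG, which do not overlap each other here. ACAAAG, the core letters of a Sox site, was also searched and was in neither window.
Pdgfra, chr5:75152001-75152300, plus strand: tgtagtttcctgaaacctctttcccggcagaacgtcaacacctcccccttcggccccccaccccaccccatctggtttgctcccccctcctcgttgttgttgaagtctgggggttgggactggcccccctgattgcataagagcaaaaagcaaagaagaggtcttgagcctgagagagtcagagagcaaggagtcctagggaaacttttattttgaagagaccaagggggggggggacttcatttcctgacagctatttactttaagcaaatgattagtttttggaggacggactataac
Lhfpl3, chr5:22745804-22746103, plus strand: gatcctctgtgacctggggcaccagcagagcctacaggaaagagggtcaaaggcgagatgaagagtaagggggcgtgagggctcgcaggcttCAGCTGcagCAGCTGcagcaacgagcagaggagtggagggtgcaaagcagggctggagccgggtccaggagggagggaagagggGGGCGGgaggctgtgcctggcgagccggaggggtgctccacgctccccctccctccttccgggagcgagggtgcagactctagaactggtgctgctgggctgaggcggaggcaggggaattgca
The Lhfpl3 window held 2 matches to CAGCTG and 1 to GGGCGG, and the Pdgfra window held none of the 3 motifs. Of 32851 promoter windows of the same length, 16.3% held CAGCTG, 18.7% held ACAAAG and 35.7% held GGGCGG. A match describes the letters only.

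Cspg4 encodes NG2, a proteoglycan on precursors and on pericytes of the vessel wall. Its values were 0.22, 0.00 and -0.40 on the untreated arrays, -0.29, -0.63 and -0.18 at 2 weeks and -0.04, -0.52, -0.28 and -0.03 at 4 weeks. On regular diet they were 1.93, 2.23, -0.46, -0.39, -0.16 and 0.26. Replicates 1 and 2 were therefore above all 14 other arrays, and the other regular diet arrays lay in or near the untreated range. The second probe gave 1.81 and 2.12 on the same 2 arrays and between -0.29 and 0.29 on the other 4, and the probes correlated at 0.98 over the 16 samples. The difference of the group from untreated was 0.63 ± 0.53 (limma adjusted p = 0.630), and its interval from -0.50 to 1.75 reflects the spread within the group. At 2 and 4 weeks the differences were -0.31 ± 0.23 and -0.16 ± 0.22.

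Other genes moved on the same 2 arrays. The median of 7 microglia markers was 3.66 and 3.75 there and between 0.60 and 0.96 on the other 4 regular diet arrays. Among these markers Itgam was at 3.95 and 4.48, Cx3cr1 at 3.66 and 3.75 and Tmem119 at 2.61 and 2.86. The median of 7 cell cycle genes was 1.93 and 2.07 there and between -0.29 and 0.54 on the others, with Mki67 at 2.45 and 2.53. The median of 7 pericyte markers was -0.39 and -0.36 there, and over both arrays the single markers lay between -0.87 (Vtn) and 0.34 (Notch3). Pdgfra was at 0.11 and 0.25. The median of 11 other precursor genes was -0.25 and -0.33 there, but 1 of them, the protease inhibitor gene Serpine2, was at 1.79 and 2.09 and at most 0.59 on the other 4 regular diet arrays. The part of microglia and of dividing cells in the Cspg4 values was not tested. The genes most like Cspg4 over the 16 samples were Lig1, a DNA ligase of replication (0.968), the microglial gene Tmem119 (0.964) and Wdr81 (0.959). The 2 arrays lay on different slides, and within slides 2 and 3, which each held 1 of them, the regular diet arrays averaged 1.24 and 1.28 above the untreated array.

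**Figure D3:**
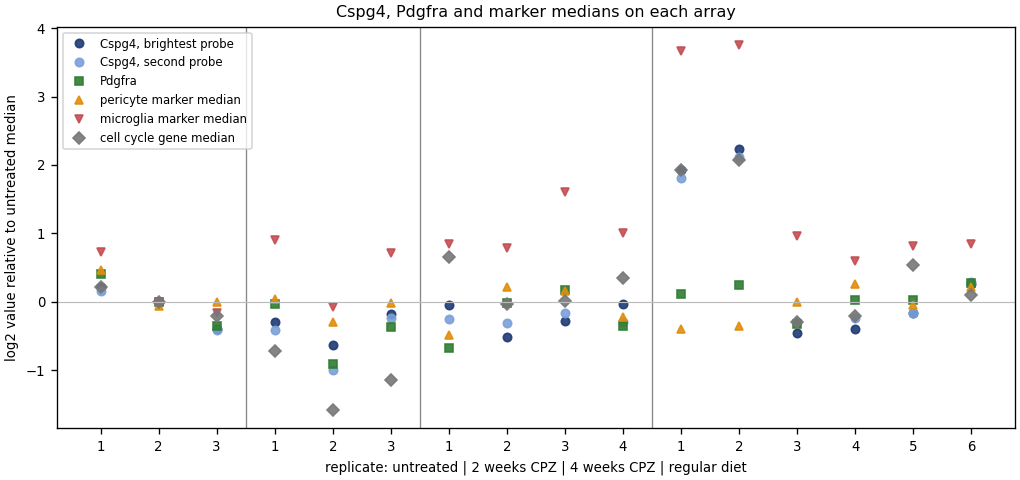
Log2 values relative to the untreated median for both Cspg4 probes and for Pdgfra, with the medians of 7 pericyte markers, 7 microglia markers and 7 cell cycle genes, on each array in group order (horizontal axis). On regular diet replicates 1 and 2 both Cspg4 probes and the microglia and cell cycle medians are high, while Pdgfra stays at 0.11 and 0.25 and the pericyte median at -0.39 and -0.36.

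Ptprz1, a receptor-type phosphatase that is also a chondroitin sulfate proteoglycan, gave different answers by probe. The brighter probe had values of 0.00, 0.11 and -0.48 on the untreated arrays, 0.50, -0.68 and -0.04 at 2 weeks and 0.55, -0.11, 0.47 and 0.29 at 4 weeks. It was on average 0.42 ± 0.30 above untreated at 4 weeks, and 0.77 with the slide as a fixed block. The second probe had 0.00, 0.16 and -0.45 on the untreated arrays, -0.34, -0.89 and -0.65 at 2 weeks and -0.39, -0.23, -0.24 and -0.50 at 4 weeks. It differed by -0.53 ± 0.22 at 2 weeks (unadjusted p = 0.0420, limma adjusted p = 0.493) and by -0.24 ± 0.21 at 4 weeks. The probes correlated at 0.39 over the 16 samples, so no direction is given for Ptprz1. The brighter probe was within 0.57 of 0 on every regular diet array.

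Vcan had 4 probes, of which 3 were tested. The fourth was well above background on 1 of 16 arrays. The brightest had values of 0.00, 0.45 and -0.24 on the untreated arrays, 0.60, -0.94 and 0.24 at 2 weeks, 0.09, -1.44, -0.47 and -0.42 at 4 weeks, and between -0.49 and 0.54 on regular diet. The mean at 4 weeks was the lowest of the 4 groups, at -0.56, and 3 of those 4 arrays lay below every untreated array. The difference was -0.63 ± 0.44 from untreated (limma adjusted p = 0.746), and regular diet was 0.75 ± 0.33 above 4 weeks (adjusted p = 0.181). The first of these was -0.11 with the slide as a fixed block and -0.33 without 4 weeks CPZ replicate 2, the lowest array. The other was 0.27 with normexp on the median signal and 0.46 without that array. The 2 other tested probes gave 0.66 ± 0.28 and 1.40 ± 0.51 for regular diet against 4 weeks. The last of these was well above background on 1 of the 4 arrays at 4 weeks and on all 6 regular diet arrays, and it entered the test only through the regular diet group, so its value is a description.

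Gpr17, a receptor that is switched on as precursors commit to differentiate, had its lowest values at 4 weeks. They were -1.59, -1.06, -0.04 and -1.33 for replicates 1 to 4, against 0.37, 0.00 and -0.82 on the untreated arrays and -0.26, -1.06 and 0.09 at 2 weeks. Replicate 3 was again the array at the untreated level. On regular diet the values were 0.03, 0.20, -0.73, -0.30, 0.21 and -0.03, all above 3 of the 4 arrays at 4 weeks. The log2 difference was -0.85 ± 0.44 for 4 weeks against untreated (limma adjusted p = 0.593), and -0.45 with the slide as a fixed block. Within slides 2 and 3 it was -0.04 and -0.77. Regular diet was 0.90 ± 0.33 above 4 weeks, with a 95% interval from 0.20 to 1.61 and an adjusted p of 0.132. The second Gpr17 probe was well above background on 0 of the 4 arrays at 4 weeks and on all 3 untreated arrays. Its untreated group mean was at least 1.36-fold higher, but untreated replicate 3 at -0.84 lay within the 4-week range of -0.96 to -0.56. The fitted difference was -0.51 ± 0.27 (unadjusted p = 0.0921, limma adjusted p = 0.607). On regular diet the second probe was well above background on 4 of the 6 arrays. The fitted difference from 4 weeks was 0.35 ± 0.26, with an interval from 0.873 to 1.86-fold, and replicate 3 at -1.12 lay below every 4-week value. Both groups hold arrays in the background range, so neither this difference nor this order is exact. Within slides 2, 3 and 4 the regular diet arrays were 0.12, 1.72 and 0.47 above the 4-week arrays for the brighter probe.

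Bmp4 was represented by 1 probe, which was well above background on all 16 arrays. Its values were 0.00, 0.04 and -0.40 on the untreated arrays, 0.35, -0.23 and 0.35 at 2 weeks, and -0.71, -0.79, -0.14 and -0.78 at 4 weeks. On regular diet they were -0.15, 0.33, -0.11, 0.02, 0.14 and 0.17. At 4 weeks, replicates 1, 2 and 4 lay below every array of the other 3 groups, and replicate 3 lay among them. The log2 difference was 0.27 ± 0.26 for 2 weeks against untreated and -0.48 ± 0.24 for 4 weeks against untreated, which was -0.23 with the slide as a fixed block. It was -0.76 ± 0.24 for 4 weeks against 2 weeks, with an unadjusted p of 0.0114 and a limma adjusted p of 0.404, and -0.21 with normexp on the median signal. Regular diet stood 0.67 ± 0.18 above 4 weeks, a 1.59-fold higher level with an interval from 1.23 to 2.07-fold. That difference had the lowest adjusted p of any member in any comparison, 0.0909. Within slides 2, 3 and 4 it was 0.39, 0.70 and 0.67. With normexp on the median signal, which changes both the spot signal used and the background correction, it was 0.05.

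**Figure D4:**
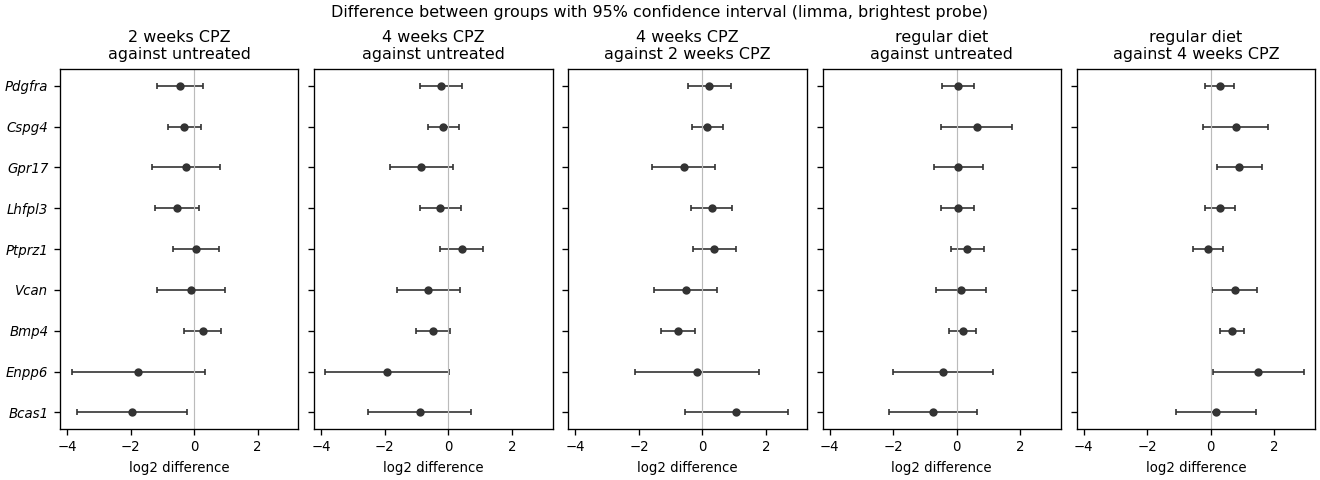
Log2 difference between groups (horizontal axis) for the brightest probe of each of the 9 genes, with the 95% confidence interval from limma, in the 5 comparisons. The intervals of Enpp6 and Bcas1 are the widest, most intervals include 0, and in the comparison of regular diet with 4 weeks CPZ those of Gpr17, Vcan, Bmp4 and Enpp6 lie above 0 before adjustment for multiple testing.

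When 4 weeks CPZ replicate 3 was left out, the share of all genes called for regular diet against 4 weeks went from 0.00485% to 1.56% (321 of 20603), and 2 of the 9 genes passed the call rule, Enpp6 at 2.26 ± 0.57 (limma adjusted p = 0.0493) and Gpr17 at 1.22 ± 0.30 (adjusted p = 0.0475). With that array in place the values were 1.5 ± 0.67 (adjusted p = 0.187) and 0.90 ± 0.33. Replicate 3 held the highest 4-week value of both genes, so leaving it out had to widen these differences. The 2 calls therefore rest on the choice of array, and no conclusion is drawn from them. Both Enpp6 values include the background-range value of -4.34 on replicate 1 and are therefore not exact. The second Enpp6 probe, well above background on all 16 arrays, gave 0.93 ± 0.52 with all arrays in place (unadjusted p = 0.0962, adjusted p = 0.274). That probe was not called without replicate 3. The difference by the brighter Enpp6 probe was 0.79 without 4 weeks CPZ replicate 1 and 0.38 with normexp on the median signal. Within slides 2, 3 and 4 it was -0.48, 3.57 and 0.77, and the value of slide 3 rests on the background-range value of replicate 1. Replicate 3 at 4 weeks carried the highest choroid plexus median, 3.36, with Ttr at 3.51 and Kl at 3.53. Regular diet replicate 4 was next at 2.95, with Ttr at 3.03 and Kl at 3.02. On replicate 3 the microglia median of 1.60 was the highest of the CPZ arrays, and the median of 9 mature myelin genes was -2.13, within the range of the other 4-week arrays. The part of the choroid plexus RNA in the values of the 6 members that were highest there among the 4-week arrays (Enpp6, Bcas1, Gpr17, Bmp4, Pdgfra and Lhfpl3) was not tested.

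**Figure D5:**
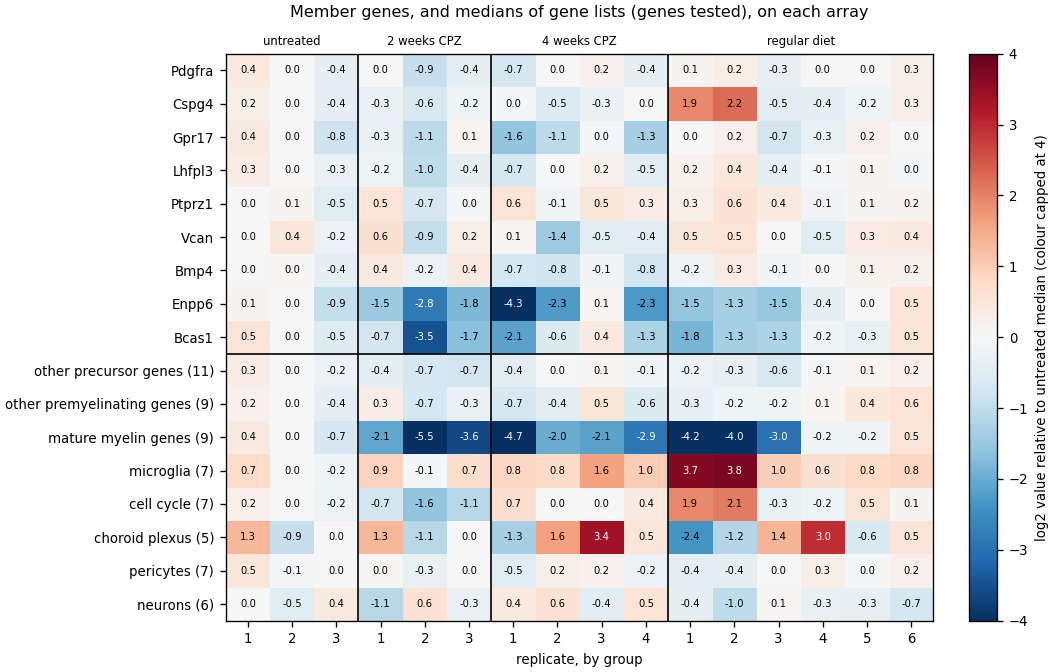
Log2 values relative to the untreated median for the 9 genes (upper rows) and medians of gene lists with the number of genes tested (lower rows) on each array (columns, by group and replicate). Enpp6 and Bcas1 follow the mature myelin row on most arrays, the choroid plexus median is high on 4 weeks CPZ replicate 3 (3.36) and regular diet replicate 4 (2.95), and the microglia and cell cycle medians are high on regular diet replicates 1 and 2.

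Other genes of the same stages were listed by name. Of 11 other precursor genes tested, none was called in any comparison, and their median log2 difference from untreated was -0.40 at 2 weeks, 0.00 at 4 weeks and -0.20 on regular diet. The median over all genes was 0.05, -0.04 and -0.01. At an unadjusted p under 0.05, 5 of the 11 were lower at 2 weeks (Rlbp1, Megf11, Cspg5, C1ql1 and Olig1), 1 was lower at 4 weeks and 2 were higher on regular diet, against 9.6%, 10.1% and 10.5% of all genes in either direction. At 2 weeks other lists were low too. The median difference of 7 cell cycle genes was -1.23, with 5 of them lower at that threshold, and that of 5 markers of subventricular progenitors was -0.81, with 3 lower. The part of either in the precursor values was not tested. Olig1, a lineage transcription factor that is kept in mature cells, had the largest differences, -1.50 at 2 weeks and -1.31 at 4 weeks (limma adjusted p = 0.416 and 0.443). C1ql1, a secreted precursor marker, differed by -1.14 at 2 weeks (adjusted p = 0.301). Of 9 other premyelinating genes, none was called, and the medians were -0.19, -0.33 and 0.17. Tns3 differed by -0.86 and Neu4 by -0.70 at 4 weeks (adjusted p = 0.611 and 0.778). In the comparison of regular diet with 4 weeks all 9 were higher, with a median of 0.45 against 0.03 over all genes. None of the 9 had an unadjusted p under 0.05 there, which 26.6% of all genes had. The mature myelin genes, for scale, had medians of -3.61 at 2 weeks, -2.78 at 4 weeks and -1.72 on regular diet, and none of the 9 was called, with 9, 8 and 0 of them at an unadjusted p under 0.05.

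Of the PDGF ligands and the second receptor, 5 genes were tested and none was called. Pdgfa, the ligand of Pdgfra that astrocytes and neurons make, differed by -0.46 at 2 weeks and -0.31 at 4 weeks (limma adjusted p = 0.716 and 0.772). Of 18 receptors, Smads and targets of the BMP pathway none was called. The largest differences were those of Smad7, an inhibitory Smad, at -1.18 and -1.37 (adjusted p = 0.176 and 0.108), and of the ligand Bmp7, at 1.16 and 0.92 (adjusted p = 0.282 and 0.389). Smad7 was below every untreated array on all 7 CPZ arrays. For scale, 16.8% of all genes had groups without overlap at 2 weeks against untreated and 9.78% at 4 weeks. Smad6, of the same list, went the other way, at 0.68 and 0.36 (unadjusted p = 0.0254 and 0.166, adjusted p = 0.395 and 0.729). Of 7 BMP antagonists none was called. Chrdl1 was higher than every untreated array on 6 of the 7 CPZ arrays and differed by 1.21 at 4 weeks (adjusted p = 0.0889).

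Of 11 genes of the chondroitin sulfate proteoglycan matrix that includes versican, Cd44, a hyaluronan receptor of reactive glia and immune cells, was called on regular diet, at 3.37 (limma adjusted p = 0.0222). Its differences after 2 and 4 weeks of CPZ, 3.17 and 3.16, did not pass (adjusted p = 0.126 and 0.108). Hapln2, a link protein of oligodendrocytes at nodes of Ranvier, differed by -3.02 and -2.80 (adjusted p = 0.152 and 0.151). Of 4 proteases that cleave versican none was called, and Adamts4, which oligodendrocytes make, differed by -2.07 and -2.06 (adjusted p = 0.154 and 0.128). Of 4 ligands and partners of Ptprz1 none was called. Pleiotrophin (Ptn), a ligand of Ptprz1, differed by -0.38 at 2 weeks, 0.05 at 4 weeks and -0.44 on regular diet (adjusted p = 0.783, 0.965 and 0.406), and regular diet against 4 weeks gave -0.48 (unadjusted p = 0.0105, adjusted p = 0.119). Nrcam, an adhesion protein, differed by 0.57 at 4 weeks (unadjusted p = 0.0405, adjusted p = 0.449).

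The genes whose pattern over the 16 samples was most like that of each member were found among 13981 named genes by Pearson correlation, as a description. For Bcas1 they were Gatm (0.981), Cd82 (0.969) and Smim1 (0.967). For Enpp6 they were Sirt2, a deacetylase abundant in myelin (0.954), Snx33 (0.951) and Parn (0.949). For Pdgfra, Cd81 (0.952) and Tmem123 (0.951) followed Lhfpl3, and for Lhfpl3 they were Brca1 (0.962), Pdgfra (0.954) and Echs1 (0.954). For Gpr17 they were Tceanc2 (0.934), Pld1 (0.895) and Alg13 (0.892), and for Bmp4 Timm21 (0.927), Hbp1 (0.916) and Ppfibp1 (0.905). For Ptprz1 they were Add3 (0.882), Gnai3 (0.876) and Pdlim5 (0.869), and for Vcan Chd1 (0.852), Tram2 (0.850) and Spg11 (0.850).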

How the data were processed

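RNA of the corpus callosum from 16 samples was measured on Agilent 4x44K mouse arrays with a single dye. The authors extracted spot intensities with Agilent Feature Extraction (version 11.0.1.1 per the file headers) and deposited them, together with a table of log2 values scaled to the 75th percentile and, as found from the values, set to the median of the untreated samples. The log2 table was used, and its columns were matched to the scanner files (lowest best r 0.99999, highest next best r 0.883 over 21974 probes). The intensity files gave the background flags. Of 41174 probes, 27479 (66.7%) were named by accession through RefSeq. Probes had to exceed background clearly, by the scanner's flag, on each array of 1 group or more, which left 27778 probes of 20603 genes and unnamed transcripts.

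Groups were compared with limma 3.58.1 in R 4.3.3, with 7 residual degrees of freedom for untreated, 2 and 4 weeks, and 12 over all samples for regular diet. Calls needed an adjusted p under 0.05 and a 2-fold change. Each gene is given by its brightest tested probe, and intervals are at 95%. The script was tested on simulated data. List genes past the call rule or among the 2 largest differences of their list may be named. The members, gene lists and tests were chosen with earlier results of these data known. Microglia, pericyte, cell cycle and choroid plexus markers beside a result, the promoter motifs, and single list genes outside the rule were picked after values were seen. The methods give 3 to 6 mice per condition, and the labels number the replicates without tying each array to an animal, so p-values measure the spread between these samples. The number of arrays limits the precision.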

Additional observations from a re-analysis of the deposited data

Results flagged for a closer look

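Within groups of 4 or 6 arrays, 18 sets of values of the 9 genes were examined for a sample apart from the rest, and chance is expected to pick about 1 in 20 such sets. One was picked. Bmp4 on 4 weeks CPZ replicate 3 was at -0.14, while the other 3 arrays of the group lay between -0.79 and -0.71, so that the gap made up 0.88 of the whole range. Enpp6, Bcas1, Gpr17, Pdgfra and Lhfpl3 were also highest on this array within the group, which makes 6 of the 9 genes. Without it Bmp4 differed by 0.82 (limma adjusted p = 0.0291) between regular diet and 4 weeks, which stays under the 2-fold limit. The array was picked by its Bmp4 value, so the lower p follows from that choice and no conclusion is drawn from it.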

How the results depend on the processing

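No member was called under any alternative other than 2 that left out an array, given here as numbers of members called on regular diet against 4 weeks, which ranged from 0 to 2 (2 without 4 weeks CPZ replicate 3, and 1 without replicate 1, a Vcan probe not well above background on 3 of the 4 arrays at 4 weeks that entered the test only through regular diet and supports no call). The number of genes called in the whole table changed more. The order below is 2 weeks against untreated, 4 weeks against untreated, 4 weeks against 2 weeks, regular diet against untreated and regular diet against 4 weeks, where limma called 48, 43, 3, 195 and 1. With the replicate block the counts were 0, 0, 0, 21 and 0 genes and 0 members. Same-numbered arrays correlated at a median of -0.075 (others 0.01), so the numbers do not pair the samples. With the scanner files as recorded they were 0 in all 5. With only the 2 groups compared they were 0, 0, 24, 128 and 141. The methods' test, an analysis over all groups with a pairwise follow-up, gave 18, 10, 11, 11 and 3. With the slide as a fixed block they were 118, 456 and 0 for the CPZ comparisons and 0 in the last, and as a random block 284, 390 and, in the last, 8. All 16 samples in 1 fit gave 26, 3 and 58 for the CPZ comparisons. Normexp on the median signal, added after the data were seen because the mean signal planned for it could not be used, gave 86 at 2 weeks, 0 for 4 against 2 weeks, 36 on regular diet against untreated and 0 against 4 weeks. A filter on all arrays gave 79, 0, 103 and 0 in the same 4, and no filter gave 13 at 4 weeks, 5 for 4 against 2 weeks and 8 in the last. Quantile normalization gave 20 at 4 weeks and 320 in the last, and median centring 19 and 4. Leaving out 1 array at a time gave 1 to 67, 0 to 160, 0 to 36, 5 to 211 and 0 to 1518 genes.

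A direction was followed where a difference exceeded its SE. With the scanner files as recorded, signs turned at 2 weeks for Pdgfra (0.16), Lhfpl3 (0.10), Bmp4 (-0.23), Enpp6 (1.13) and Bcas1 (0.87), and at 4 weeks for Ptprz1 (-0.08), Enpp6 (0.48) and Bcas1 (0.09). They turned for 4 against 2 weeks in Gpr17 (0.02), Ptprz1 (-0.08), Vcan (0.47), Bmp4 (0.02) and Bcas1 (-0.78), and on regular diet against untreated in Ptprz1 (-0.04). Against 4 weeks they turned in Pdgfra (-0.34), Cspg4 (-0.38), Gpr17 (-0.85), Lhfpl3 (-0.46), Vcan (-0.64), Bmp4 (-0.49) and Enpp6 (-1.90). The only other turn was Bmp4 at 2 weeks under normexp (-0.09). The cause was not tested.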
